A study of Mus musculus with 10 samples.

Results

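Cytosolic ribosomal protein genes encode the proteins of the large and the small subunit of the ribosome that translates nuclear-encoded mRNA. Members were chosen by gene symbol alone, as every symbol of the form Rpl or Rps followed by a number, with an optional a, l, x or y and a digit, together with Rplp0, Rplp1, Rplp2 and Rpsa. This rule found 84 genes among the 23258 symbols of the table, 51 of the large and 33 of the small subunit. Of these, 81 had at least 1 TPM (a transcript level scaled for transcript length and library total) in at least 5 libraries and were tested. The other members, Rpl10l, Rpl39l and Rpl3l, were at or near 0 throughout. RNA was sequenced from sorted retinal ganglion cells, whose axons form the optic nerve, of C57BL/6 mice on postnatal day 6. The groups were 5 libraries of Satb1-/- mice carrying the Hb9-GFP reporter and 5 of wild-type mice carrying the same reporter, each collected from a different litter, with about 1000 sorted cells per sample. Satb1 is a chromatin organizer, and the reporter follows the promoter of Hb9 (Mnx1), which in the retina marks direction-selective ganglion cells. Both groups share the reporter, the strain and the age, and the study asked which transcripts differ in these cells without Satb1.

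A ribosome holds a single copy of nearly all of its proteins, the acidic stalk proteins Rplp1 and Rplp2 being the known exception, so cells make these proteins in near-equal numbers. Their mRNAs are short, abundant and stable. Many of them begin with a C followed by a run of pyrimidines, the 5′ terminal oligopyrimidine (TOP) tract, through which mTOR signalling sets their translation. In growing neurons they are also carried into axons and dendrites. The family has many processed pseudogenes, intronless copies of the mRNA elsewhere in the genome, so reads of a member and of its copies can be hard to tell apart.

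The coding part of Rpl41, the member with the highest median level, shows how short some of these mRNAs are. It holds 25 codons before the stop codon and is printed from GENCODE M21 on GRCm38 with the start and stop codons in capitals.
Rpl41: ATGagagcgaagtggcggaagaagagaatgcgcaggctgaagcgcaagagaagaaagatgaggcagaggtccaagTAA
The stretches below run from 20 bases before to 10 bases after the annotated start of 6 members, from RefSeq on GRCm38.p6, on the strand of the gene. Rpl41, Rpl38 and Rps27 are shown because they had the highest median levels, and Rpl4, Rpl15 and Rps6 because they were below the rest of the family in the libraries where it was high; Rpl4 was chosen after its values were seen. Capitals mark each C followed by at least 4 pyrimidines.
Rpl41, chr10:128549159-128549188, minus strand: gacgacacacgggccggctcggaagtgacg
Rpl38, chr11:114668560-114668589, plus strand: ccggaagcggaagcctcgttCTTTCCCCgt
Rps27, chr3:90213639-90213668, minus strand: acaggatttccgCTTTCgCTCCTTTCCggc
Rpl4, chr9:64173367-64173396, plus strand: agtCTTTCCTTTTCCTgtgggagcagccgg
Rpl15, chr14:18270977-18271006, minus strand: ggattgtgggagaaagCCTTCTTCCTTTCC
Rps6, chr4:86857358-86857387, minus strand: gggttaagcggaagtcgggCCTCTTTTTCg
Such a run stood in the window of both kinds of member, while the window of Rpl41 held none. The GENCODE gene of Rpl41 reaches position 128549305, upstream of this window, so a start there was not covered. Of the 63 members with a promoter in the RefSeq table, 36.5% had CTTTC or CTTTT on the sense strand within 20 bases of a start, against 10.9% of 27018 genes. CTTTC alone was found in 30.2% of the members on the sense strand and in 6.35% on the antisense strand, against 6.44% and 5.66% of all genes. For CTTTT the shares were 11.1% and 1.59% of the members, against 5.03% and 4.60% of all genes. CCGGAAG, the core site of the ETS factors, was found in the 300-base promoters of 27.0% of the members on the sense strand and 15.9% on the antisense strand, against 5.40% of all genes on either. TATAAA was found in 9.52% of the members on the sense strand, against 9.77% of all genes, and in 4.76% against 7.95% on the antisense strand. AAGATGGC was found in 4.76% of the members on each strand, against 1.98% and 1.23% of all genes.

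The libraries varied widely. Between 10073 and 12230 genes per Satb1-/- library and between 11119 and 12555 genes per wild-type library had at least 1 TPM. Depth is unknown because TPM keeps no read number. On the first principal component, which held 32.9% of the variance, Satb1-/- 4, Satb1-/- 5 and wild-type 5 stood apart, with scores of 88.0, 149 and 102 against at most -14.2 elsewhere. Ganglion cell markers were present in every library, for example Rbpms at 491 to 2978 TPM in Satb1-/- and 374 to 1767 TPM in wild-type libraries. Mnx1 itself was at 0 to 4.44 TPM in Satb1-/- and 0 to 8.04 TPM in wild-type libraries. Satb1 was at 24.1 to 170 TPM in Satb1-/- and 38.6 to 414 TPM in wild-type libraries, so the ranges overlapped, and the deleted part of the gene is not stated in the labels.

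The ribosomal protein genes took a share of all TPM that differed more between libraries of a genotype than between the genotypes. In Satb1-/- 1 to 5 they took 4.44%, 4.76%, 8.03%, 13.7% and 13.3% of the TPM, and in wild-type 1 to 5 they took 4.40%, 5.24%, 3.87%, 6.55% and 12.2%. The highest shares were in Satb1-/- 4, Satb1-/- 5 and wild-type 5, and the genotypes overlapped over nearly their whole range. The means were 8.85% ± 4.48 in Satb1-/- and 6.45% ± 3.35 in wild-type libraries (SD, n = 5 each). The difference of 2.40 percentage points was within the spread between replicates and, as a sum over chosen members, was not tested. Without the 3 libraries that stood apart it was 0.725 percentage points, which includes a very high value of Rpl36 in Satb1-/- 3. With Rpl36 also left out, the shares were 4.40%, 4.73% and 4.07% in Satb1-/- 1 to 3. In wild-type 1 to 4 they were 4.36%, 5.21%, 3.81% and 6.49%, a range that held all of these Satb1-/- shares.

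**Figure D1:**
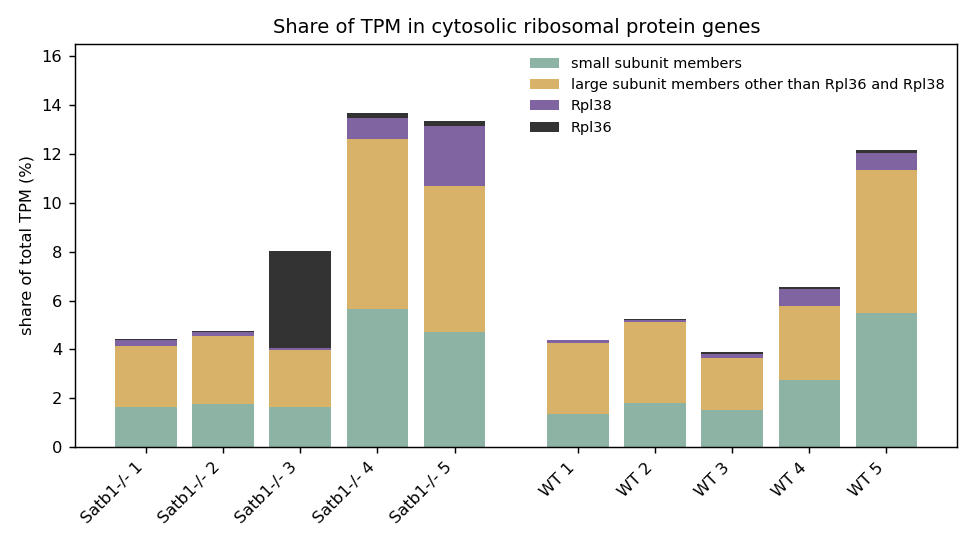
Share of total TPM (%) held by the 84 ribosomal protein genes in each library, Satb1-/- 1 to 5 on the left and wild-type (WT) 1 to 5 on the right, split into small subunit members, large subunit members, Rpl38 and Rpl36. The bars of Satb1-/- 4, Satb1-/- 5 and wild-type 5 reach 13.7%, 13.3% and 12.2%, and Rpl36 alone makes up 3.95 percentage points of the bar of Satb1-/- 3.

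The bar of Satb1-/- 3 was high through a single gene. Rpl36, a large subunit protein (chromosome 17, 56613416 to 56614243, plus strand, mm10), stood at 474, 324, 39533, 1973 and 1952 TPM in Satb1-/- 1 to 5. In wild-type 1 to 5 it stood at 356, 328, 644, 620 and 1149 TPM. Without Rpl36 the share of Satb1-/- 3 was 4.07%, close to the 4.40% and 4.73% of Satb1-/- 1 and 2, and the difference between the genotype means was 1.58 percentage points. In Satb1-/- 5 the top member was Rpl38, a large subunit protein known from the skeletal patterning defects of its mouse mutant (chromosome 11, 114668524 to 114672331, plus strand), with 2.47% of all TPM. Rpl38 stood at 2602, 1963, 952, 8908 and 24695 TPM in Satb1-/- 1 to 5 and at 1233, 1071, 1476, 7110 and 6957 TPM in wild-type 1 to 5. It was high in Satb1-/- 4 and 5 and wild-type 4 and 5, so that 2 libraries of each genotype were above the rest. Without both genes the genotype difference in share was 1.15 percentage points.

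Small subunit members took 1.64%, 1.76%, 1.63%, 5.63% and 4.70% of the TPM in Satb1-/- 1 to 5 and 1.35%, 1.82%, 1.52%, 2.73% and 5.48% in wild-type 1 to 5. Large subunit members took 2.80% to 8.64% in Satb1-/- and 2.35% to 6.69% in wild-type libraries. The ratio of large to small subunit TPM averaged 2.12 ± 1.02 in Satb1-/- and 1.66 ± 0.413 in wild-type libraries (SD, n = 5 each), and it was 3.92 in Satb1-/- 3, where Rpl36 was highest. The 5 highest members of each library held 24.6% to 59.3% of the ribosomal protein TPM in Satb1-/- and 22.4% to 41.4% in wild-type libraries. The median member, which a single gene cannot move far, stood at 418, 399, 383, 864 and 777 TPM in Satb1-/- 1 to 5 and at 410, 484, 337, 413 and 764 TPM in wild-type 1 to 5.

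Most members were high in the same 3 libraries, in which the median of the other genes was low. The shared trend was taken as the median, over the 81 tested members, of log2(TPM + 1) minus the mean of the gene over the 10 libraries. It was -0.40, -0.21, -0.48, 0.94 and 0.84 in Satb1-/- 1 to 5 and -0.32, -0.08, -0.63, -0.30 and 0.60 in wild-type 1 to 5. In Satb1-/- 4, Satb1-/- 5 and wild-type 5, 72, 65 and 63 of the 81 members were above their own mean, whereas in the other 7 libraries 18 to 38 were. The same median over the 11663 other tested genes was -0.38, -1.01 and -0.64 in those 3 libraries. Ganglion cell markers were mixed there. Slc17a6, the glutamate transporter of ganglion cells, was at 96.7, 55.2 and 67.8 TPM in Satb1-/- 4, Satb1-/- 5 and wild-type 5 and at 176 to 726 TPM elsewhere. Sncg, another ganglion cell marker, was at 3088, 1093 and 3953 TPM in the same libraries and at 734 to 2176 TPM elsewhere. The 19 tested markers of the ganglion cell list had medians of -0.46, -1.06 and -0.97 in these libraries on the centred log2 scale. The 20 genes of the list summed to 19502 to 104711 TPM in Satb1-/- and 20192 to 34282 TPM in wild-type libraries. None was at 0 in every library. The highest sum was in Satb1-/- 3, where Nefl alone was at 94381 TPM. The median of the tested markers in that library was -0.24. In sorted bulk samples fewer cells of a type and less RNA per cell cannot be told apart, and the part of cell makeup in the ribosomal protein share was not tested.

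**Figure D2:**
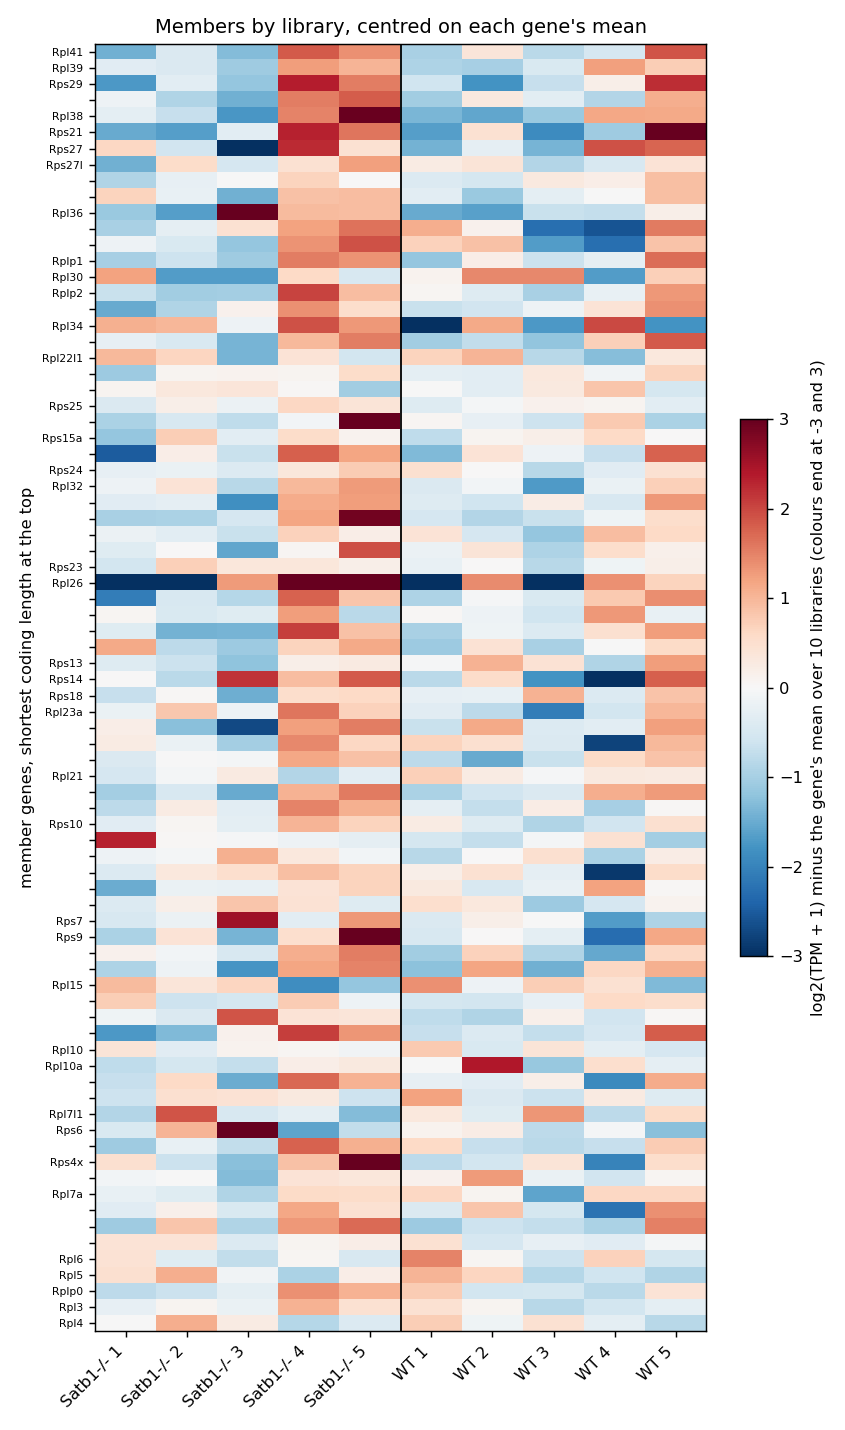
Heat map of log2(TPM + 1) minus the mean of each gene over the 10 libraries for the tested members with a gene model, one row per gene from the shortest coding length (top) to the longest (bottom) and labels for most genes named in the text, Satb1-/- libraries left of the line and wild-type (WT) libraries right of it. The columns of Satb1-/- 4, Satb1-/- 5 and wild-type 5 are mostly red in the upper rows and mixed in the lower rows, where Rpl15, Rps6, Rpl5 and Rpl4 are below their mean in several of these libraries.

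The trend was stronger in members with a short coding sequence. Coding lengths, without the stop codon, ran from 75 to 1257 nt over the 80 tested members with a gene model, with a median of 454.5 nt against 1419 nt for the other tested genes. For the 27 members of up to 400 nt the library median was 1.22, 1.01 and 0.90 on the centred log2 scale in Satb1-/- 4, Satb1-/- 5 and wild-type 5. For the 23 members over 600 nt it was 0.41, 0.33 and 0.05. In 5 of the other 7 libraries short members were lower than long ones, for example -0.66 for the short and -0.25 for the long members in Satb1-/- 1, and -0.59 and 0.32 in wild-type 1. Spearman's rho between coding length and centred level, across members within a library, was 0.18, 0.33, 0.24, -0.38 and -0.31 in Satb1-/- 1 to 5 and 0.40, 0.05, 0.19, -0.20 and -0.40 in wild-type 1 to 5. These are descriptions, since the members of a library share its RNA, amplification and depth.

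Other genes showed a gradient of the same sign in the 3 libraries. Their rho with coding length was -0.17, -0.15 and -0.16 in Satb1-/- 4, Satb1-/- 5 and wild-type 5 and -0.03 to 0.19 in the other libraries (n = 11133 genes). With the length of the whole mRNA it was -0.31, -0.26 and -0.32 there, nearer to the -0.41, -0.37 and -0.36 of the members. The 548 other genes of up to 400 nt had medians of 0.26, -0.41 and 0.10 in these 3 libraries, below the 1.22, 1.01 and 0.90 of the ribosomal protein genes of the same length class. The level of other genes also followed GC content there, with a rho of 0.53, 0.30 and 0.55 against -0.36 to 0.05 elsewhere. Over the members, rho with GC content was 0.19, 0.08 and 0.11 in the same libraries. The part of length and base composition in the ribosomal protein trend was not tested.

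**Figure D3:**
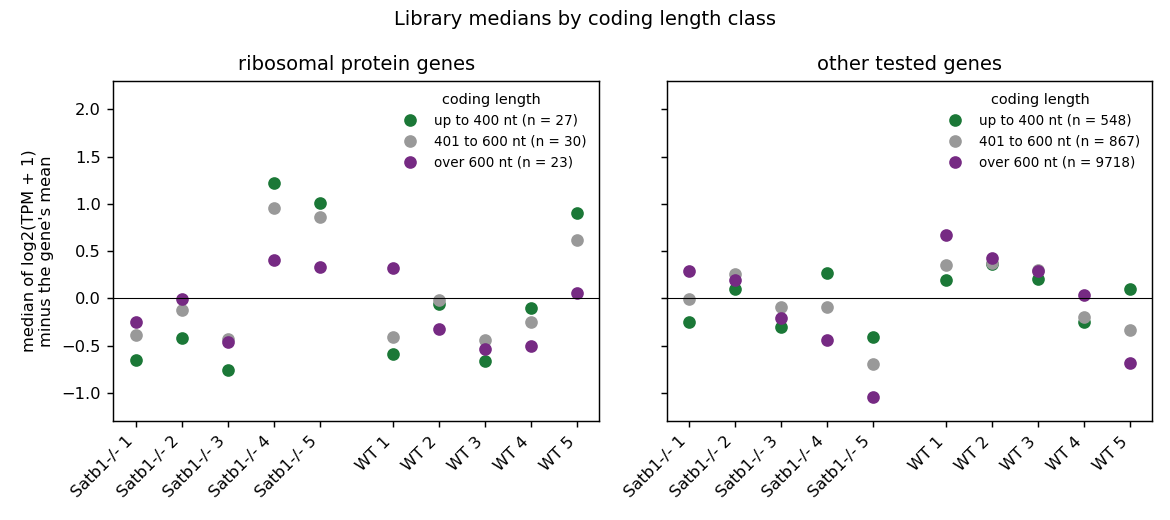
Median of log2(TPM + 1) minus the mean of each gene, by library and coding length class, for the ribosomal protein genes (left panel, n = 27, 30 and 23) and for the other tested genes (right panel, n = 548, 867 and 9718), Satb1-/- libraries before wild-type (WT) ones. Short members reach 1.22, 1.01 and 0.90 in Satb1-/- 4, Satb1-/- 5 and wild-type 5, while other genes over 600 nt are lowest there, at -0.44, -1.05 and -0.69.

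Median levels of single members covered more than 3 orders of magnitude on the TPM scale. The median of a tested member over the 10 libraries ran from 2.44 to 3467 TPM. The lowest medians were those of the paralog Rpl7l1 (2.44 TPM), of Rpl30 (3.13 TPM) and of Rpl26 (15.7 TPM). Rpl30 and Rpl26 were nearly 0 in several libraries. The next lowest was Rps15a, at 36.1 TPM. In all, 72 members had a median of at least 100 TPM and 14 of at least 1000 TPM. The highest medians belonged to Rpl41 (3467 TPM), Rps27 (3148 TPM), Rpl38 (2283 TPM), Rpl10 (1756 TPM), Rps29 (1388 TPM), Rps23 (1235 TPM), Rpl7a (1210 TPM) and Rpl39 (1202 TPM). Rpl41, which encodes the smallest ribosomal protein (chromosome 10, 128548114 to 128549305, minus strand), had levels of 1776, 3541, 1955, 17153 and 12470 TPM in Satb1-/- 1 to 5 and of 2432, 6123, 2740, 3394 and 17618 TPM in wild-type 1 to 5. It was high in the 3 libraries with a high share and the genotypes overlapped. Rpl10, a large subunit protein added late in ribosome maturation (chromosome X, 74270812 to 74273135, plus strand), was steadier, at 1398 to 2330 TPM in Satb1-/- and 1244 to 3044 TPM in wild-type libraries. Rps23, a protein of the decoding centre, was likewise at 793 to 1890 TPM and 645 to 1313 TPM.

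At the low end stood Rpl7l1, Rpl30, Rpl26, Rps15a and Rps27l. Rpl30, a large subunit protein used by all cells, was at 6.36, 0.000848, 0.000803, 3.82 and 1.28 TPM in Satb1-/- 1 to 5 and at 2.44, 7.70, 7.74, 0.000415 and 4.26 TPM in wild-type 1 to 5. Values this far below those of its partners in the ribosome may be a failed estimate, and no mean is given. GENCODE M21 holds transcripts of 12 other genes with at least 95% identity over at least 90% of the coding part of Rpl30. Such near-identical copies were common in the family, with a median of 5 per member and at least 10 for 17 members. Rpl21 had the most, 56, followed by Rpl7a with 32, Rpl29 with 27, Rps2 with 24 and Rps12 with 23. Only 6 members had none. How reads that match several places were assigned is not stated in the labels, so the levels of these members are uncertain. Rps15a stood at 14.5 to 56.5 TPM in Satb1-/- and 19.4 to 51.6 TPM in wild-type libraries.

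Paralogs with restricted expression were low or at 0 beside their parent genes. Rpl3l, known from muscle, was listed at 0 in 9 of 10 libraries, with 0.376 TPM in wild-type 2, while Rpl3 was at 307 to 749 TPM in Satb1-/- and 203 to 503 TPM in wild-type libraries. Rpl39l, known from testis, was listed at 0 in 9 libraries, with 0.367 TPM in wild-type 1, while Rpl39 was at 748 to 3710 TPM and 778 to 3662 TPM. Rpl10l, also known from testis, reached 1.27 TPM in Satb1-/- 4 and 0.276 TPM in wild-type 4, the other libraries being at 0. Rpl22l1 went the other way, at 444, 357, 84.9, 303 and 154 TPM in Satb1-/- 1 to 5 and at 359, 461, 127, 93.4 and 284 TPM in wild-type 1 to 5. Its parent Rpl22 was at 694 TPM in Satb1-/- 5, at most 70.2 TPM in the other Satb1-/- libraries and 38.2 to 129 TPM in wild-type libraries. The paralog was thus above its parent in every library but Satb1-/- 5 and wild-type 4. Rps27l was at 11.2 to 76.1 TPM in Satb1-/- and 17.1 to 42.8 TPM in wild-type libraries, far below Rps27 at 288 to 13451 TPM and 1079 to 10805 TPM. Rpl7l1 was at 0.748 to 14.8 TPM and 1.48 to 9.76 TPM.

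The stalk, which binds the translation factors on the large subunit, followed the family. Rplp1 stood at 458, 600, 440, 2644 and 2349 TPM in Satb1-/- 1 to 5 and at 413, 1045, 583, 758 and 2918 TPM in wild-type 1 to 5. Rplp2 stood at 865, 659, 676, 5564 and 2587 TPM and at 1420, 1041, 698, 1172 and 3354 TPM. Both were highest in the 3 libraries with a high share. The longer Rplp0, which anchors them, was lower in every library but wild-type 1, at 182, 200, 254, 805 and 640 TPM in Satb1-/- libraries and 534, 214, 217, 177 and 416 TPM in wild-type libraries.

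No ribosomal protein gene was called different between the genotypes. Of the 81 tested members, limma called 0 at a Benjamini-Hochberg adjusted p under 0.05 over all 11744 tested genes, as it did of all genes (0%). At an unadjusted p under 0.05, 1 member passed, in the direction of higher levels in Satb1-/- libraries, against 389 of all tested genes (3.31%: 0.741% higher and 2.57% lower in Satb1-/- libraries). Levels of the genotypes overlapped for all 81 tested members, while they did not for 0.502% of all tested genes. The log2 difference, Satb1-/- minus wild-type, was above 0 for 54 members and below 0 for 27, where 32.6% of all tested genes were above 0 and 67.4% below. Its median was 0.20 over the members and -0.31 over all tested genes. Median centring of the libraries moved both up, to 0.57 and 0.07. Without Satb1-/- 4, Satb1-/- 5 and wild-type 5 the median over the members was -0.11, with 36 above and 45 below 0, and that over all tested genes was -0.22. With single libraries left out it ran from 0.01 without Satb1-/- 4 to 0.42 without wild-type 5. The median standard error of a member was 0.62, against 0.78 for all tested genes. An unadjusted interval that held 0 did not show equal levels, and an interval that left out 0 was not enough for a call. Rpl34, at 2.05 with an interval of 0.13 to 3.96, had a limma Benjamini-Hochberg adjusted p of 0.992. Among other genes, Cartpt, a direction-selective ganglion cell gene, was not called at -4.49 (SE 0.82; limma Benjamini-Hochberg adjusted p = 0.134). The smallest difference that could be called was not determined.

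**Figure D4:**
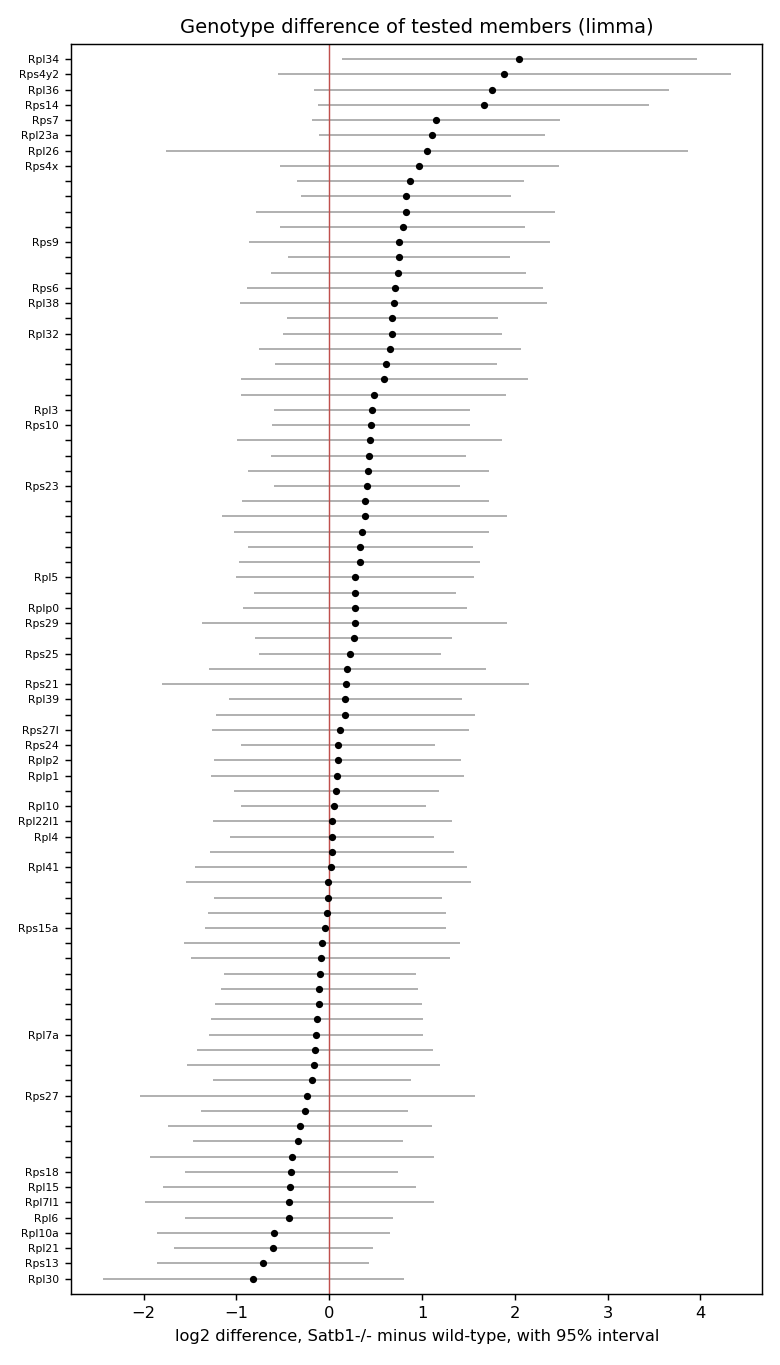
log2 difference on the log2(TPM + 1) scale, Satb1-/- minus wild-type, of the 81 tested members, ordered by size, with labels for most genes named in the text, points for the limma estimate and lines for its unadjusted 95% interval. The interval of Rpl34 (0.13 to 3.96) is the only one that leaves out 0, and Rpl30 (-0.82 with a pseudocount of 1) is at the lower end.

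The member with the smallest p was Rpl34, a large subunit protein (chromosome 3, 130726831 to 130730398, minus strand). Its levels were 473, 450, 200, 842 and 549 TPM in Satb1-/- 1 to 5 and 7.57, 489, 67.1, 887 and 64.0 TPM in wild-type 1 to 5. Wild-type 1, 3 and 5 were below all Satb1-/- libraries, and wild-type 4 was above them all. The difference was 2.05 (SE 0.92; limma unadjusted p = 0.0373, Benjamini-Hochberg adjusted p = 0.992), and 1.13 without wild-type 1. Next came Rps14, a small subunit protein of the mRNA channel, at 276, 157, 1247, 527 and 986 TPM in Satb1-/- 1 to 5 and 156, 403, 78.9, 17.3 and 962 TPM in wild-type 1 to 5, a difference of 1.66 (SE 0.86), and 0.89 without wild-type 4. For Rpl36, whose values are given above, the difference of 1.75 (SE 0.92) was 0.65 without Satb1-/- 3. Rpl23a, which lies at the exit of the peptide tunnel, was at 1175, 2372, 1208, 4094 and 2157 TPM in Satb1-/- 1 to 5 and 1054, 783, 318, 912 and 2687 TPM in wild-type 1 to 5. All Satb1-/- libraries were above all wild-type libraries but wild-type 5, with a difference of 1.10 (SE 0.58), and 17 near-identical copies make the level uncertain.

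The remaining named differences did not pass the test either. Rps7 averaged 454 ± 466 TPM in Satb1-/- and 157 ± 71.7 TPM in wild-type libraries (SD, n = 5 each; log2 difference 1.15, SE 0.64), with 1241 TPM in Satb1-/- 3. Rps4y2, which RefSeq lists as Rps4l, a transcribed pseudogene, averaged 202 ± 225 TPM and 30.5 ± 21.9 TPM (1.89, SE 1.17). Among members with lower means in Satb1-/- libraries, the small subunit protein gene Rps13 averaged 363 ± 143 TPM in Satb1-/- and 636 ± 333 TPM in wild-type libraries (-0.72, SE 0.55). Rpl21 averaged 112 ± 34.0 TPM and 167 ± 31.9 TPM (-0.60, SE 0.51). Rpl10a averaged 706 ± 257 TPM and 1480 ± 1629 TPM (-0.60, SE 0.60), with 4350 TPM in wild-type 2, without which the difference was -0.07. Rpl6 (-0.43, SE 0.54) and Rps18 (-0.41, SE 0.55) were also lower in mean. The log2 difference of Rpl30 (-0.82, SE 0.78) depends on the pseudocount, being -1.52 with 0.1 and -0.23 with 10. Each of these members had a Benjamini-Hochberg adjusted p of 0.992 in limma.

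Members differed in how closely they followed the shared trend. The residual of a member is its centred log2 level minus the trend of the library, and its SD over the 10 libraries had a median of 0.80, from 0.29 to 2.42. It was smaller than the SD of the level itself for 54 of the 81 members. The smallest residual SDs were those of Rps10, Rps24, Rpl3, Rpl32 and Rps25, at 0.29, 0.35, 0.46, 0.47 and 0.49. Rps25 did so by being flat, since the SD of its level was 0.34, below its residual SD. Rps10, a protein of the head of the small subunit (chromosome 17, 27630418 to 27636669, minus strand), had levels of 442, 581, 456, 1139 and 880 TPM in Satb1-/- 1 to 5 and of 662, 427, 299, 375 and 772 TPM in wild-type 1 to 5. Its highest level was in Satb1-/- 4 and its lowest in wild-type 3, as for the trend.

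The 8 members farthest from the trend were Rpl26, Rps4y2, Rpl36, Rpl34, Rps6, Rps14, Rpl15 and Rps21. Rpl26 (chromosome 11, 68901583 to 68906989, plus strand) had a residual SD of 2.42. It stood at 0.00296, 0.00842, 19.2, 107 and 112 TPM in Satb1-/- 1 to 5 and at 0.00646, 21.3, 0.00428, 20.7 and 12.3 TPM in wild-type 1 to 5, that is, at nearly 0 in 2 libraries of each genotype. As for Rpl30, values this low may be a failed estimate, which was not tested. Rpl26 has 6 near-identical copies. Rps4y2 had a residual SD of 2.31 and was near 1 TPM in Satb1-/- 1 (1.12 TPM) and wild-type 4 (1.19 TPM) and at 22.5 to 570 TPM elsewhere. Rpl36, at 2.11, lay 5.75 above the trend in Satb1-/- 3 and between -1.56 and 0.09 in the others. Rpl34, at 2.05, lay 4.39 below it in wild-type 1.

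Rps6, the small subunit protein that S6 kinase phosphorylates downstream of mTOR (chromosome 4, 86854660 to 86857412, minus strand), ran against the family. Its levels were 146, 408, 2286, 65.7 and 119 TPM in Satb1-/- 1 to 5 and 213, 234, 116, 190 and 82.9 TPM in wild-type 1 to 5. It was lowest of its genotype in Satb1-/- 4 and in wild-type 5, where most members were high, and highest in Satb1-/- 3. Rpl15, a large subunit protein (chromosome 14, 18267823 to 18271391, minus strand), did the same more plainly. It stood at 473, 317, 383, 67.1 and 109 TPM in Satb1-/- 1 to 5 and at 637, 219, 408, 334 and 97.2 TPM in wild-type 1 to 5, so that Satb1-/- 4, Satb1-/- 5 and wild-type 5 held its 3 lowest values. Its residuals were -2.79 in Satb1-/- 4 and -1.93 in wild-type 5. Rpl4, a large subunit protein near the peptide tunnel, had residuals of -1.79, -1.24 and -1.44 in the same 3 libraries. Rps14 was set apart by wild-type 4, at 3.62 below the trend. Rps21 exaggerated the trend, at 179, 162, 410, 2544 and 1552 TPM in Satb1-/- 1 to 5 and 161, 703, 137, 244 and 6733 TPM in wild-type 1 to 5.

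**Figure D5:**
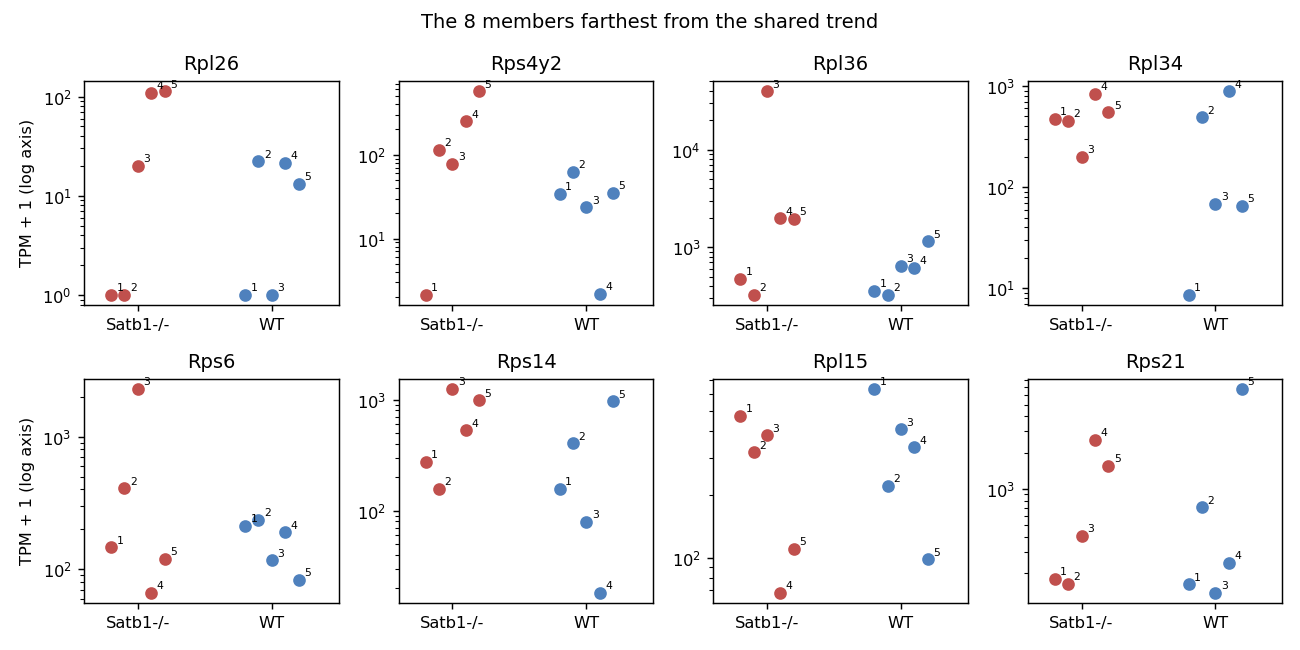
Level (TPM + 1, log axis) in each library, marked by its replicate number, of the 8 members with the largest residual SD, Satb1-/- libraries in red on the left of each panel and wild-type (WT) libraries in blue on the right. Rpl15 has its lowest values in Satb1-/- 4 and 5 and wild-type 5, Rps21 has its highest values in the same libraries, and Rpl36 reaches 39533 TPM in Satb1-/- 3 only.

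In Satb1-/- 3, Rpl36, Rps6, Rps7 and Rps14 were at their highest, and so was the neurofilament gene Nefl at 94381 TPM, against 6422 to 19151 TPM elsewhere. Outside the rule for named genes, and chosen after its values were seen, Rps9 reached 6130 TPM in Satb1-/- 5 against 126 to 1390 TPM elsewhere.

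Ribosomal proteins whose symbols the rule does not cover followed the same libraries. Fau, a ubiquitin-like fusion that carries a small subunit protein, stood at 373, 571, 631, 2124 and 1376 TPM in Satb1-/- 1 to 5 and at 565, 305, 661, 648 and 2731 TPM in wild-type 1 to 5. Gnb2l1 (Rack1), a scaffold on the small subunit, stood at 133, 129, 431, 673 and 1733 TPM in Satb1-/- 1 to 5 and at 291, 226, 158, 177 and 573 TPM in wild-type 1 to 5. Both were highest in Satb1-/- 4, Satb1-/- 5 and wild-type 5. Rpl36al, a large subunit protein, stood at 227, 568, 361, 1485 and 2042 TPM in Satb1-/- 1 to 5 and at 216, 340, 448, 63.7 and 521 TPM in wild-type 1 to 5. The genotypes overlapped for each of these genes, and the log2 difference was 0.19 for Fau (SE 0.63), 0.61 for Gnb2l1 (SE 0.68) and 1.40 for Rpl36al (SE 0.69), each with a limma Benjamini-Hochberg adjusted p of 0.992.

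Lists of other translation genes had lower medians than the ribosomal protein genes in the same 3 libraries. On a list of 26 elongation factors and other mRNAs with a TOP tract, the median on the centred log2 scale was 0.07, -0.37 and -0.40 in Satb1-/- 4, Satb1-/- 5 and wild-type 5. For 26 initiation factors it was -0.22, -0.08 and -0.63, and for 47 ribosome biogenesis factors -0.50, -0.49 and -0.53. Genes of mTOR signalling and of TOP mRNA regulation had medians of -0.12, -1.45 and -0.39 (20 genes), and the RNA polymerase I machinery 0.25, -0.52 and 0.40 (19 genes). All of these medians were below the ribosomal protein trend of their library (0.94, 0.84 and 0.60); the differences between lists were not tested.

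Between the genotypes, limma called 0 genes of these lists at a Benjamini-Hochberg adjusted p under 0.05. Of the elongation and TOP list, 14 were above and 12 below 0 in log2 difference, with a median of 0.02, and 0 passed an unadjusted p under 0.05. Vim had the smallest p there and stood at 2118 TPM in Satb1-/- 5 against 7.63 to 71.7 TPM elsewhere, and the glial gene Apoe was at 5651 TPM in the same library against 10.9 to 735 TPM elsewhere. Of the initiation factors, 8 were above and 18 below 0 (median -0.20, 0 at an unadjusted p under 0.05). The cap-binding protein gene Eif4e was at 1180 TPM in Satb1-/- 1 against 8.77 to 78.0 TPM elsewhere. Of the biogenesis factors, 15 were above and 32 below 0 (median -0.19). Surf6, a nucleolar protein gene, passed an unadjusted p under 0.05, at 2.01 to 33.2 TPM in Satb1-/- and 0.363 to 5.89 TPM in wild-type libraries (log2 difference 1.85, SE 0.82; limma adjusted p = 0.992). The polymerase I list had 8 above and 11 below 0 (median -0.17), with 0 at an unadjusted p under 0.05. The mTOR list had 8 above and 12 below 0 (median -0.17). Its translation repressor gene Eif4ebp2 passed an unadjusted p under 0.05, at 0.301 to 34.7 TPM in Satb1-/- and 12.4 to 163 TPM in wild-type libraries (-2.08, SE 0.89; limma adjusted p = 0.992). These medians compare with -0.31 over all tested genes.

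Markers of other retinal and immune cells were present at varied levels beside these values. Rod genes summed to 225 to 1871 TPM in Satb1-/- and 646 to 1099 TPM in wild-type libraries, with 11 of 15 tested. Microglia and macrophage genes summed to 417 to 3501 TPM and 40.6 to 3009 TPM, with 14 of 15 tested. Muller glia genes summed to 209 to 7883 TPM and 403 to 658 TPM, with 7 of 10 tested. The highest Muller glia sum was in Satb1-/- 5, where Apoe stood at 5651 TPM and Vim at 2118 TPM. Dkk3 of the same list was at its lowest there, at 31.3 TPM. The median of the tested Muller glia genes in Satb1-/- 5 was -0.22 on the centred log2 scale. In Satb1-/- 4, Satb1-/- 5 and wild-type 5 the microglia sum was 417, 3501 and 810 TPM and the rod sum 703, 225 and 749 TPM, so neither list was high or low in all 3. Other lists had their lowest sums in these libraries. Amacrine genes summed to 120, 89.3 and 86.9 TPM there and to at least 200 TPM elsewhere. Pax6 alone held 116, 88.5 and 70.4 TPM of these amacrine sums. Bipolar genes summed to 105, 41.2 and 153 TPM there and to at least 174 TPM elsewhere. Of that list, Isl1, which is also on the ganglion cell list, was at 62.3, 29.1 and 28.3 TPM there and 92.0 to 297 TPM elsewhere. Otx2, another bipolar list gene, was at 17.6, 2.34 and 115 TPM there and 0 to 120 TPM elsewhere. Progenitor and cell cycle genes summed to 22.9, 18.0 and 17.4 TPM there, against at least 26.3 TPM. The part of these cells in the ribosomal protein share was not tested.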

How the data were processed

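The authors deposited log10(TPM + 1) values for 23746 entries in 10 libraries; that the scale is log10 with an offset of 1 was read from the values, whose back-transformed sums are 998018 to 999562 per library without the entries named by a number. The submitters' processing notes name TopHat2 2.0.10, Cufflinks and mm10. No source used here gives the annotation, strand or treatment of multiply matching reads. Amplified cDNA was sequenced, per the labels' protocols.

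Entries named by a number (26) were left out and 240 symbols on several lines were summed. The 11744 genes that reached 1 TPM in 5 or more libraries were tested on log2(TPM + 1) with limma 3.58.1 in R 4.3.3 (a genotype term, eBayes with trend, two-sided) with Benjamini-Hochberg adjustment at 0.05. The fit was checked on simulated data. Fold changes on this scale understate changes of low genes. Depth is unknown, so no counting intervals were computed. Gene models and loci came from GENCODE M21 (GRCm38, the same coordinates as mm10), with 1 principal transcript per gene and a model for 86.9% of symbols; copies were sought with BLAST+ 2.17.0.

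Members, gene lists and tests were chosen with earlier results of these data known. Named members are the 8 highest and 5 lowest by median, 6 per direction by p, the 8 most and 5 least deviating, paralogs and stalk proteins; of other lists, up to 3 genes by p. Length classes, the motifs and fits without Rpl36 or Rpl38 were chosen after the data were seen. The marker lists cover ganglion, direction-selective, rod, cone, amacrine, bipolar, Muller glia, progenitor, microglia, endothelial and red blood cells and immediate early genes. Alternatives covered the pseudocount, filter, scaling, a replicate block, library weights and left-out libraries. Replicate numbers came from different litters, and the labels name no pairing by number.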

Additional observations from a re-analysis of the deposited data

Results flagged for a closer look

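Dixon's test for the highest or lowest of 5 libraries was applied to 37 named members and to 2 measures of the family, in 78 groups, on a log2 scale and, added after seeing the data, on the linear scale. Chance flags about 1 in 20 groups of normally distributed values. Many of these members were named from the same values, and TPM on the linear scale is skewed, so that rate does not hold here. The ratio of large to small subunit TPM in Satb1-/- 3 stood apart on both scales, at 3.92 with the other Satb1-/- libraries at 1.43 to 1.84. On the log2 scale 1 other value stood apart, Rpl7a at 319 TPM in wild-type 3, with the other wild-type libraries at 1012 to 1482 TPM and 32 near-identical copies of the gene. The others stood apart on the linear scale only. In wild-type 5 these were Rpl41 at 17618 TPM, Rps29 at 8786 TPM, Rps21 at 6733 TPM, Rplp1 at 2918 TPM and Rplp2 at 3354 TPM. In Satb1-/- 3 they were Rpl36 at 39533 TPM and Rps6 at 2286 TPM. The remaining ones were Rpl7l1 at 14.8 TPM in Satb1-/- 2, Rps4x at 2678 TPM in Satb1-/- 5 and Rpl10a at 4350 TPM in wild-type 2.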

How the results depend on the processing

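No alternative fit called a member at a Benjamini-Hochberg adjusted p under 0.05 in limma; over 19 alternative fits the lowest adjusted p of any member was 0.651, and 0 to 3 members passed an unadjusted p under 0.05. Of all genes tested, 0 to 3 were called. All 12 members named by p kept their direction in every alternative fit that tested them (Rpl30 was not tested at a minimum of 5 TPM), but several sizes rested on 1 library. Rps7 was 0.65 without Satb1-/- 3, Rpl23a 0.72 without wild-type 3, Rps18 -0.09 without Satb1-/- 3 and Rpl6 -0.12 without wild-type 1. Rps4y2 was 1.08 without wild-type 4 and 3.18 without Satb1-/- 1. After median centring Rps18 was -0.03 and Rpl6 -0.06. The median log2 difference over members ran from 0.01 to 0.42 with single libraries left out and was -0.11 without the 3 libraries that stood apart. It was 0.57 after median centring and 0.16 after quantile normalization, with 72 and 48 members above 0, and the median of all tested genes was then 0.07 and -0.04. The same scalings turned the split of all genes at an unadjusted p under 0.05 from 87 higher and 302 lower to 234 and 149, and to 189 and 212. The genotype difference in share ran from 1.19 to 3.83 percentage points with single libraries left out; it was 2.20 with the 20 most abundant other symbols left out of the total and 1.83 without the 5 most abundant members. The median residual SD ran from 0.71 to 0.83 over its alternatives, with 6 to 8 of the 8 most deviating members shared. With mRNA length in place of coding length, rho over members kept its sign in Satb1-/- 4, Satb1-/- 5 and wild-type 5 and turned to -0.08 in wild-type 2, against 0.05. With replicate number as a block, 3 members passed a limma unadjusted p under 0.05 and 830 of all genes did, against 389. Same-numbered libraries correlated at -0.03 to 0.36 in their deviations from the group mean. Of the 5 Satb1-/- libraries, 3 (1, 3 and 5) correlated best with their own number. The labels do not say whether a number marks a shared batch, and this was not tested. Depth is unknown, so values near 0 (Rpl3l, Rpl10l, Rpl39l, Rpl26, Rpl30) cannot be set against a detection limit.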

Other observations

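The remaining marker lists, each given as its summed level, were as follows. Cone genes summed to 3.97 to 209 TPM in Satb1-/- and 33.4 to 386 TPM in wild-type libraries, amacrine genes to 89.3 to 275 TPM and 86.9 to 358 TPM, and bipolar genes to 41.2 to 294 TPM and 153 to 342 TPM. Direction-selective ganglion cell genes summed to 144 to 483 TPM in Satb1-/- and 722 to 1590 TPM in wild-type libraries. The list holds Cartpt and Cntn5, which earlier results of these libraries had already shown, and Satb1 itself, the deleted gene. Satb1 made up 24.1 to 170 TPM of the sums in Satb1-/- and 38.6 to 414 TPM in wild-type libraries. Cartpt made up 1.63 to 47.3 TPM and 56.8 to 843 TPM. Progenitor and cell cycle genes summed to 18.0 to 78.5 TPM and 17.4 to 166 TPM, endothelial and pericyte genes to at most 7.71 TPM and to 5.84 to 61.5 TPM, red blood cell genes to 0.293 to 182 TPM and 0 to 39.9 TPM, and immediate early genes to 131 to 353 TPM and 84.8 to 626 TPM.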
